A study of Mus musculus with 6 samples.

Results

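Splicing factor genes are described here in normal and leukemic myeloid progenitors of the mouse. They comprise the genes of SR proteins (Srsf), of heterogeneous nuclear ribonucleoproteins (Hnrnp), of the SF3A and SF3B complexes, of U2AF, of the small nuclear ribonucleoprotein (snRNP) proteins named Snrp, and of the pre-mRNA processing factors named Prpf. A gene was taken when the single symbol of its probe set in the platform annotation began with one of these names, and where a gene had more than 1 probe set, the brightest on average represented it. The rule found 60 genes of 13146 named ones, with 167 probe sets: 9 SR protein genes, 19 hnRNP genes, 9 SF3 genes, 3 U2af genes, 8 Snrp genes and 12 Prpf genes. All 60 passed the filter on dim signal and were tested.

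The spliceosome removes introns from pre-mRNA and is built anew on each intron from snRNPs, particles of a small nuclear RNA and its proteins. SR proteins bind mostly within exons and help to recruit the machinery, hnRNP proteins bind nascent RNA and often oppose exon inclusion, and U2AF and the SF3 complexes recognise the 3′ end of the intron and its branch point. Several of these genes, SF3B1, SRSF2 and U2AF1 among them, are known from recurrent mutations in human myeloid neoplasms. Many SR and hnRNP genes also make alternative transcripts that are not translated into full-length protein, by which they adjust their own levels.

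The leukemia group consisted of 3 samples of Lin-/Sca1-/cKit+ cells sorted from the spleens of MF1 mice with AE9a leukemia, each sample named for 1 numbered mouse. These mice had been lethally irradiated and given progenitors transduced with AE9a, a truncated form of the AML1-ETO fusion protein that was delivered by transduction and not expressed from its own chromosomal locus. The wild-type group consisted of 3 samples of cells with the same surface markers from the bone marrow of wild-type MF1 mice, which the labels name in the plural, so that a sample may pool animals. All mice were 12 to 16 weeks old, and each sample was hybridised to 1 Affymetrix Mouse430_2 array from 200 ng of total RNA. Organ, irradiation with transplantation, and leukemia differ together between the groups and cannot be told apart, and fewer cells expressing a gene cannot be told from less RNA per cell.

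The median intensity per array ran from 71.6 to 79.9, and the small number of arrays, 6, bounds all precision. Leukemia replicate 1 was unlike its group. Its correlations with the other leukemia arrays over all probe sets were 0.969 and 0.970, against 0.978 between leukemia replicates 2 and 3. It shared a recorded hybridization date with the wild-type arrays, which leukemia replicates 2 and 3 did not. Arrays with the same recorded hybridization date are called a fluidics run here. Among the sort markers, Kit was above the filter in both groups but lower in leukemia, with an intensity of 649 to 894 against 1301 to 1372, and Ly6a (Sca1) was not analysed here. Of 3 B cell, 1 T cell and 4 granulocyte markers measured, only the B cell gene Cd79b passed the filter on dim signal. The summed intensity of 6 mast cell and basophil markers was 4365 to 4829 on the wild-type arrays and 12684 to 21583 on the leukemia arrays, with 4 members higher and 1 lower. That of 7 macrophage and dendritic cell markers was 978 to 1082 and 159.7 to 211, with 3 lower. For 6 megakaryocyte markers it was 1874 to 2070 and 788 to 1668, with 1 higher and 4 lower. For 4 erythroblast markers it was 2152 to 3532 and 3374 to 4547, with 3 higher. For 7 markers of spleen stroma it was 360 to 441 and 332 to 515, with 1 higher and 1 lower. The 5′ probe set of 18S ribosomal RNA exceeded its wild-type level by 3.13 log2 in leukemia and Gapdh had a gap between its 3′ and 5′ probe sets that was larger by 0.23 (exact permutation test, two-sided, p = 0.1 for each, the smallest that 3 against 3 allows). For Actb the same gap was larger in leukemia by only 0.03 (exact permutation test, two-sided, p = 0.9). The part of these differences in the results on splicing factor genes was not tested.

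The splicing factor genes differed little between leukemic and normal progenitors. Of the 60 genes 16 changed, 1 higher and 15 lower in leukemia (limma, Benjamini-Hochberg adjusted p under 0.05 over all 9715 genes tested). Among all genes tested 42.1% changed, 16.9% higher and 25.2% lower. By family the share that changed ran from none of the U2af genes and 12.5% of the Snrp genes to 44.4% of the SF3 genes. None of the splicing factor genes changed by 2-fold, whereas 19% of all genes tested passed the test with a change of at least 2-fold. The changes that passed ran from 1.13-fold (Sf3b5) to 1.73-fold (Prpf40b) in the lower direction and came to 1.34-fold for Srsf5, the single gene that rose.

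The precision sufficed to bound most of these changes. The 95% interval of the change lay within 2-fold either way for 59 of the 60 genes, and for 61.3% of all genes tested. The exception was Prpf40b. Splicing factor genes gave bright probe sets, with a median level of 10.78 log2 against 8.21 over all genes tested, and bright genes varied less between replicates. Of the 693 tested genes at or above that median level, a comparison set chosen after the data were seen, 38.2% changed and 3.61% did so by at least 2-fold. Of the 30 splicing factor genes at or above it 7 changed, none by 2-fold.

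**Figure D1:**
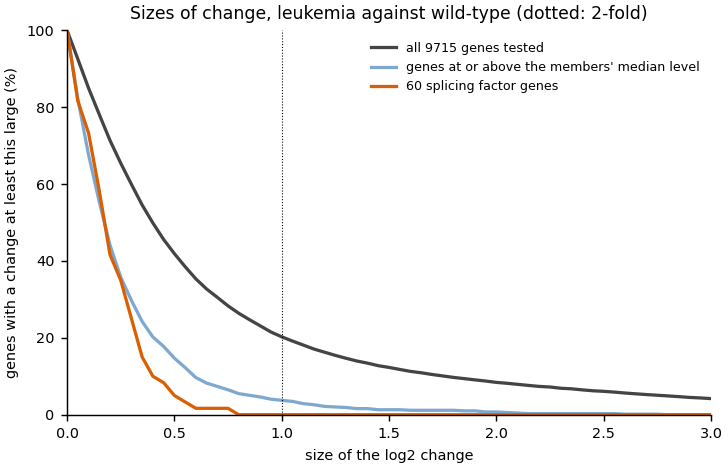
Share of genes (vertical axis, percent) whose log2 change between leukemia and wild-type was at least the size on the horizontal axis, for the 60 splicing factor genes, for the 693 genes at or above their median level and for all 9715 genes tested. The line of the splicing factor genes reaches 0 before the dotted 2-fold mark, where 20.3% of all genes tested remain.

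The small differences leaned in 1 direction. The change was below 0 for 48 of the 60 genes, or 80% of them, against 56.9% of all genes tested, and its median was -0.16 on the log2 scale against -0.09 over all genes tested. With each array centred on its median, the medians were -0.08 and -0.01. With the mean of all probe sets of a gene in place of the brightest they were -0.05 and -0.04, so that the gap between them nearly closed. That mean also takes in sets too dim to be tested. All leukemia values lay on one side of all wild-type values for 29 of the 60 genes, or 48.3%, as they did for 59.2% of all genes tested. This held for 15 of the 16 changed genes, the exception being Hnrnpl.

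Many of these calls rested on the full set of arrays. Leaving out wild-type replicate 1, 2 or 3 reduced the changed genes to 5, 6 and 5, where 29.3%, 28.2% and 27.2% of all genes tested changed. They numbered 8, with 2 higher and 6 lower, when the arrays were centred on their medians, where 41% of all genes tested changed. Hnrnpa2b1, Hnrnph1, Prpf40b and Sf3a1 were the 4 genes called whichever array was left out.

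**Figure D2:**
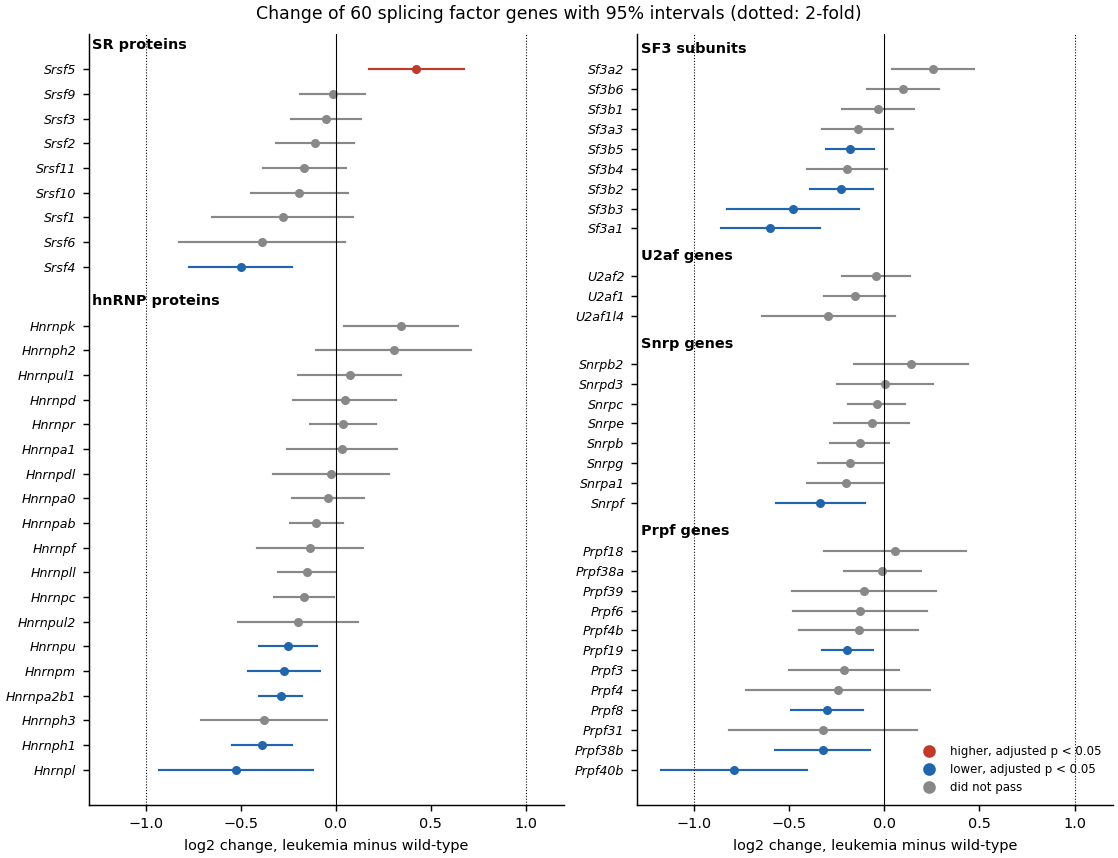
Log2 change (leukemia minus wild-type, horizontal axis) of the 60 splicing factor genes with its 95% interval, by family, red for genes that were higher, blue for genes that were lower and grey for genes that did not pass the test. Only Prpf40b has an interval that crosses a dotted 2-fold line, and Srsf5 is the single red point.

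Among the SR proteins, Srsf5 was higher and Srsf4 lower, and the other 7 did not pass. Srsf5 encodes a small SR protein that promotes exon inclusion. It was at 12.53, 12.28 and 12.22 log2 on leukemia arrays 1, 2 and 3 and at 11.94, 12.06 and 11.75 on the wild-type arrays. Every leukemia value lay above every wild-type value, and the gene rose by 0.42 ± 0.11 SE (n = 3 each, limma adjusted p = 0.0178). It did not pass when wild-type replicate 1 (adjusted p = 0.0544) or 3 (adjusted p = 0.0617) was left out, and Srsf5 had 1 tested probe set.

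Srsf4, one of the longer SR proteins, was at 10.47, 10.28 and 10.04 on the leukemia arrays and at 10.80, 10.74 and 10.74 on the wild-type arrays. It fell by 0.50 ± 0.11 SE (limma adjusted p = 0.0127), and the leukemia values, though all lower, spread widely beside those of the wild-type arrays. The fall came to 0.60 without leukemia replicate 1 and to 0.29 on that array alone. It did not pass with wild-type replicate 1 left out (adjusted p = 0.0525).

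The well studied SR protein genes Srsf1, Srsf2 and Srsf3 did not pass with their brightest probe sets. Srsf1, which binds purine-rich exonic enhancers, was at 10.80, 11.32 and 11.41 in leukemia and at 11.55, 11.41 and 11.41 in wild-type, so that only leukemia replicate 1 lay clearly apart. Its change was -0.28 with a 95% interval from -0.65 to 0.09, and on leukemia replicate 1 alone it was -0.65. Srsf2, an activator of exon inclusion, had a change of -0.11 (-0.31 to 0.10), and -0.28 on leukemia replicate 1 alone. Srsf3, which also serves as an adaptor of mRNA export, had one of -0.05 (-0.24 to 0.13). These intervals leave out a 2-fold change, and other probe sets of all 3 genes did change, as described with the probe sets.

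The hnRNP genes held 5 of the 15 falls and no rise, and 14 of 19 did not pass. The share of the family that changed was 26.3%, against 42.1% of all genes tested. Hnrnpa2b1, whose protein binds pre-mRNA and takes part in mRNA transport, was at 12.00, 11.94 and 11.99 on the leukemia arrays and at 12.27, 12.31 and 12.22 on the wild-type arrays. The groups were tight and apart, and the gene fell by 0.29 ± 0.05 SE (limma adjusted p = 0.00319), although its other probe sets went the opposite way. Hnrnph1, which binds runs of G in RNA, was at 10.81, 10.92 and 10.97 against 11.25, 11.30 and 11.31. It fell by 0.39 ± 0.07 SE (limma adjusted p = 0.00370), with no overlap. With the mean of its probe sets, the change was -0.21 and did not pass (adjusted p = 0.107).

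Hnrnpm, Hnrnpu and Hnrnpl fell as well. Hnrnpm fell by 0.27 ± 0.08 SE (limma adjusted p = 0.0308), a call lost without leukemia replicate 2 or 3 or any 1 of the wild-type arrays (adjusted p of 0.0520 to 0.121). Hnrnpu, a large RNA and chromatin binding protein, fell by 0.25 ± 0.06 SE (adjusted p = 0.0192), lost without any 1 wild-type array. Its set 1434390_at fell by 1.08 (adjusted p = 0.0240), not called without wild-type replicate 1 or 2. Its sets 1434391_at, 1450849_at and 1423050_s_at had changes of 0.10, 0.17 and -0.20 and did not pass. Hnrnpl, which binds CA repeats and is known for exon silencing in Ptprc transcripts, was at 10.59, 10.26 and 10.16 in leukemia and at 10.54, 10.97 and 11.08 in wild-type. Its groups overlapped through leukemia replicate 1 and wild-type replicate 1, and its fall of 0.52 ± 0.17 SE was near the threshold (adjusted p = 0.0450) and was lost without leukemia replicate 2 or 3 or wild-type replicate 2 or 3. Hnrnpk, a poly(C) binding protein, was the member of this family with the largest positive change, at 11.83, 11.32 and 11.52 against 11.13, 11.25 and 11.25, a difference of 0.34 that did not pass (adjusted p = 0.0649) although the groups did not overlap. It passed without leukemia replicate 2 (0.46, adjusted p = 0.0175). The other tested sets of Hnrnpk, 1448176_a_at and 1460547_a_at, had changes of -0.12 and -0.02 and did not pass. For 1448176_a_at every leukemia value lay below every wild-type value. Hnrnpa1, an abundant exon silencer, had a change of 0.03 (95% interval -0.25 to 0.32). The brightest set of Hnrnpr had a change of 0.04, while 1452030_a_at rose by 1.62 (limma adjusted p = 0.0203). That rise was not called without leukemia replicate 2 or 3 or wild-type replicate 2 or 3.

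The SF3A and SF3B complexes are parts of the U2 snRNP that clamp the branch point region. Of 9 genes 4 fell, none rose and 5 did not pass, so that 44.4% changed, near the 42.1% of all genes tested. Sf3a1, the largest subunit of SF3A, was at 8.99, 8.95 and 9.07 on the leukemia arrays and at 9.45, 9.73 and 9.63 on the wild-type arrays. The leukemia values were closely grouped and all lower, and the fall was 0.60 ± 0.11 SE (limma adjusted p = 0.00495). The mean of its probe sets had a change of 0.22 that did not pass, in the opposite direction. Sf3b3, a scaffold subunit of SF3B, was at 10.38, 10.82 and 10.97 against 11.18, 11.17 and 11.27. It fell by 0.48 ± 0.15 SE (adjusted p = 0.0361), by 0.31 without leukemia replicate 1 and by 0.82 on that array alone, and the call was lost without any 1 wild-type array (adjusted p of 0.0904 to 0.118).

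Sf3b2 and Sf3b5, further SF3B subunits, fell by 0.23 and 0.18 (adjusted p = 0.0376 and 0.0331), calls that were lost without leukemia replicate 2 and without any 1 wild-type array, and for Sf3b2 also without leukemia replicate 3. The mean of all 7 Sf3b2 probe sets, of which 5 were bright enough to be tested, had a change of 0.08. Sf3b1, the subunit that contacts the branch point and is most often mutated in myelodysplasia, was at 11.47, 11.24 and 11.23 in leukemia and at 11.31, 11.39 and 11.34 in wild-type. The groups overlapped, the change was -0.03 with a 95% interval from -0.22 to 0.16, and none of its 4 tested probe sets passed. Sf3a2 lay higher on every leukemia array, by 0.26, without passing (adjusted p = 0.0583). It passed without leukemia replicate 1 (0.31, adjusted p = 0.0250). The other set of Sf3a2, 1450576_a_at, had a change of -0.09 and did not pass.

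The U2AF dimer reads the 3′ splice site ahead of these complexes, and none of its 3 genes passed. U2af1, the small subunit that contacts the AG dinucleotide, was at 10.48, 10.40 and 10.48 against 10.65, 10.58 and 10.60. Every leukemia value was lower, but the change of -0.16 (95% interval -0.32 to 0.004) did not pass (limma adjusted p = 0.105). U2af2, the large subunit that binds the pyrimidine tract, had a change of -0.04 (-0.22 to 0.13).

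Of the 8 Snrp genes 1, Snrpf, passed with its brightest probe set, and it fell. It encodes SmF, a protein of the ring of Sm proteins that encircles the small nuclear RNAs, and was at 9.85, 9.94 and 9.66 in leukemia and at 10.09, 10.17 and 10.20 in wild-type. The groups did not overlap and the fall was 0.34 ± 0.10 SE (limma adjusted p = 0.0310), a call lost without leukemia replicate 3 (adjusted p = 0.0739) or any 1 wild-type array. The other Sm genes measured, Snrpb, Snrpd3, Snrpe and Snrpg, had changes of -0.13, 0.002, -0.07 and -0.18, and none of these brightest sets passed. The other set of Snrpg, 1448357_at, fell by 0.32 ± 0.07 SE (adjusted p = 0.0126, not called without wild-type replicate 3), and the brightest set passed without leukemia replicate 1 (-0.22, adjusted p = 0.0479). The changes of Snrpa1 and Snrpb2 of the U2 snRNP and of Snrpc of the U1 snRNP were -0.20, 0.14 and -0.04.

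The Prpf genes name factors of several assemblies, and 4 of 12 fell while none rose. The share that changed, 33.3%, was below the 42.1% of all genes tested. Prpf40b, related to a yeast protein that bridges the ends of the intron, had the largest change of all 60 genes. It was at 6.005, 6.17 and 5.89 log2 on the leukemia arrays and at 6.62, 6.89 and 6.93 on the wild-type arrays, dim values for this set of genes. Its fall of 0.79 ± 0.16 SE (1.73-fold, limma adjusted p = 0.00830) was the single call kept in all 17 alternatives of processing, with an adjusted p between 0.00487 and 0.0450. Prpf40b had 1 probe set, so the mean of all probe sets and the sets without shared endings left its values unchanged. Prpf8, the large protein at the centre of the catalytic spliceosome, was at 10.71, 10.54 and 10.64 against 10.89, 11.03 and 10.87. It fell by 0.30 ± 0.08 SE (adjusted p = 0.0223), with no overlap, but was not called without leukemia replicate 2 or any 1 wild-type array.

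Prpf38b fell by 0.32 and Prpf19, a ubiquitin ligase of the activated spliceosome, by 0.19 (adjusted p = 0.0436 and 0.0310). Prpf38b was not called without leukemia replicate 1 or 2 or any 1 wild-type array, and Prpf19 not without leukemia replicate 2 or 3 or any 1 wild-type array. All 4 tested probe sets of Prpf19 fell, the other 3 by 0.70, 0.70 and 0.97. The tri-snRNP genes Prpf3, Prpf4, Prpf6 and Prpf31 had changes of -0.21, -0.24, -0.13 and -0.32 and did not pass.

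**Figure D3:**
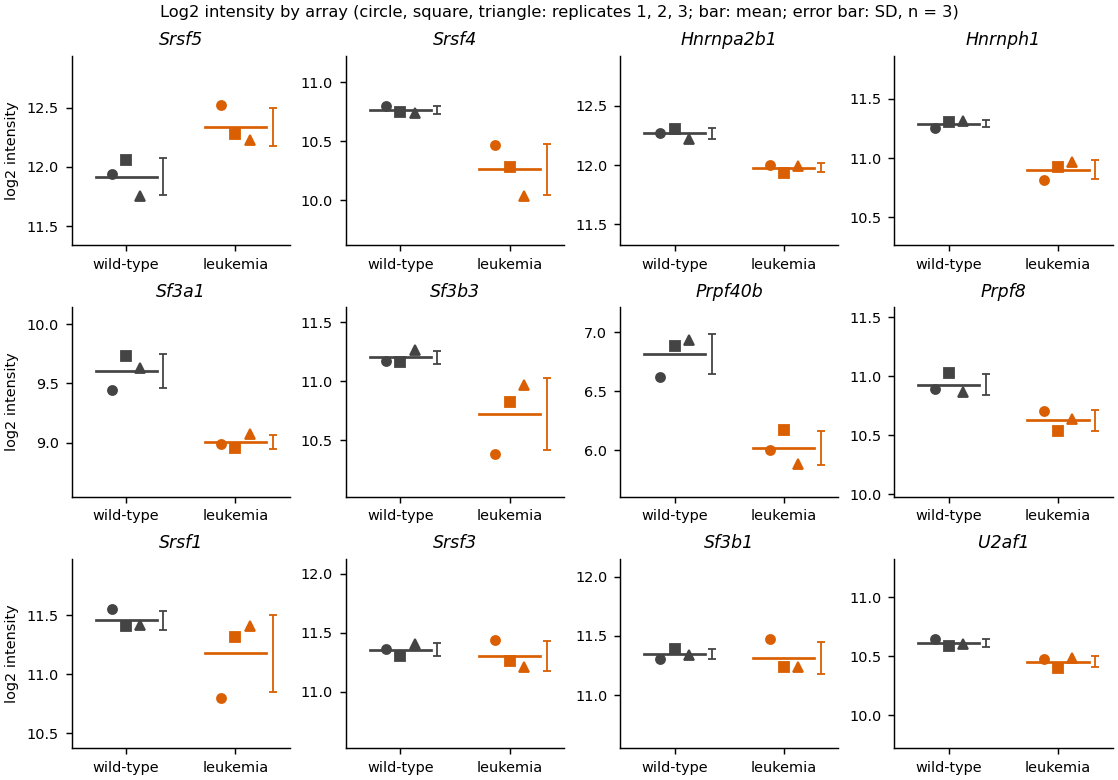
Log2 intensity (vertical axis, 1.6 log2 units in every panel) of 12 splicing factor genes on each of the 3 wild-type and 3 leukemia arrays, with the group mean and SD (n = 3). The groups are apart for Hnrnpa2b1, Hnrnph1, Sf3a1 and Prpf40b, overlap for Srsf3 and Sf3b1, and Srsf1 is low on leukemia replicate 1 alone.

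Leukemia replicate 1 differed from the other leukemia arrays for a few members. It was the lowest leukemia array for 25 of the 60 genes and the highest for 23. It lay more than 0.5 log2 from the mean of the other leukemia arrays for 5 genes, below it each time, whereas 27.7% of all genes tested lay that far away in one direction or the other. The 5 genes, singled out after their values were seen, were Prpf31 (-0.72), Srsf6 (-0.70), Prpf4 (-0.59), Srsf1 (-0.56) and Sf3b3 (-0.51). Srsf6, an SR protein, was at 10.85 on leukemia replicate 1, at 11.53 and 11.56 on the other leukemia arrays and at 11.67 to 11.74 on the wild-type arrays. The change of this brightest set was -0.85 on leukemia replicate 1 alone and -0.15 without it. The other tested sets of Srsf6, 1416720_at, 1416721_s_at and 1447898_s_at, went the opposite way on that array, with changes of 0.79, 0.53 and 0.88. The direction of Srsf6 on leukemia replicate 1 therefore depends on the probe set. The sign of the change was the same on leukemia replicate 1 as on the other leukemia arrays for 46 of the 60 genes.

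Without leukemia replicate 1, 18 genes changed, 16 lower and 2 higher, and 15 of the 16 calls were kept, where 48.5% of all genes tested changed. With the fluidics run as a block, which sets leukemia replicate 1 alone against the wild-type arrays and assumes that it varies like the others, 27 genes passed, 19 lower and 8 higher, 9 of them among the 16, where 52.8% of all genes tested passed. Over the 60 genes the median SD was 0.13 in leukemia and 0.05 in wild-type, against 0.22 and 0.11 over all genes tested.

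**Figure D4:**
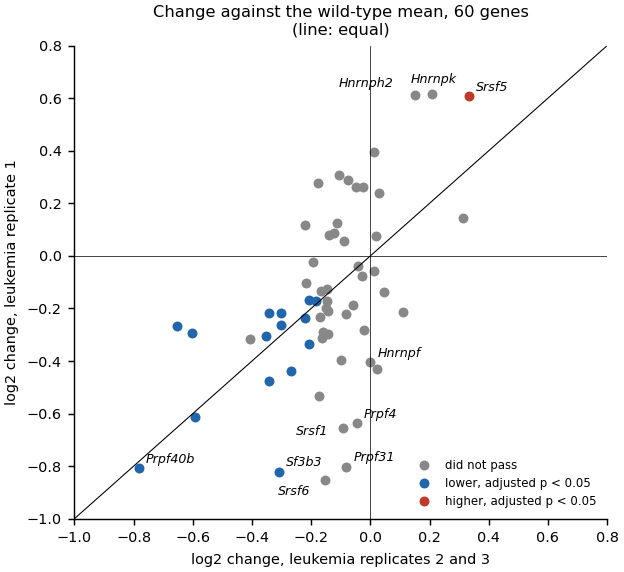
Log2 change against the wild-type mean on leukemia replicate 1 (vertical axis) and on leukemia replicates 2 and 3 (horizontal axis) for the 60 splicing factor genes, coloured by their call over all arrays. Srsf6, Prpf31, Sf3b3, Srsf1 and Prpf4 lie far below the line of equality, and Hnrnph2, Hnrnpk and Srsf5 above it.

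For some splicing factor genes, different probe sets disagreed in direction. A probe set is a group of short probes against one stretch of a transcript, mostly near its 3′ end, so that probe sets of a gene can read different transcript forms. An ending in _a_at marks a set that reads several transcripts of 1 gene, and _s_at or _x_at one that may also read other genes. Of the 151 member probe sets tested 42 passed, 13 higher and 29 lower (limma over 16327 probe sets, of which 39.1% passed, 17.7% higher and 21.4% lower), and 6 of these changed by at least 2-fold, as did 18.3% of all probe sets tested.

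A total of 8 genes, Srsf1, Srsf2, Srsf3, Hnrnpa2b1, Hnrnpab, Sf3a1, Sf3b2 and Prpf4b, had probe sets called in both directions. They made up 20% of the 40 splicing factor genes with more than 1 tested probe set, against 1.41% of all 4176 such genes. Splicing factor genes have many probe sets, and of genes with 4 or more tested probe sets the shares were 7 of 15 against 5.92% of 557, a total that includes the 7. Of the members with 3 tested probe sets 1 of 8 was such a gene, and of those with 2 it was 0 of 17, against 1.48% and 0.42% of all genes with as many. The count was 3, 2 and 3 without wild-type replicates 1, 2 and 3, 3 without leukemia replicate 2 and 5 without leukemia replicate 3, and Hnrnpa2b1 and Hnrnpab were among them each time. It was 5 when _x_at and _s_at sets were left out, a check added after the data were seen.

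Among the SR genes, the set 1452430_s_at of Srsf1 was at 9.28, 10.13 and 10.19 on the leukemia arrays and at 9.19, 8.76 and 8.36 on the wild-type arrays, a rise of 1.10 ± 0.30 SE (limma adjusted p = 0.0256). The set 1428100_at of the same gene was at 8.52, 9.20 and 9.10 against 9.74, 9.67 and 9.74, a fall of 0.78 ± 0.18 SE (adjusted p = 0.0146). Neither pair of groups overlapped. The rise was not called without leukemia replicate 2 or 3 or wild-type replicate 2 or 3, and on leukemia replicate 1 alone it was 0.51. The fall was not called without any 1 wild-type array. For Srsf3 the set 1438215_at rose by 0.82, from 5.82, 6.10 and 5.90 to 6.85, 6.48 and 6.95, while 1416151_at fell by 0.80, from 8.48, 8.51 and 8.58 to 7.20, 7.83 and 8.13 (adjusted p = 0.0121 and 0.0334). The rise was not called without wild-type replicate 3, nor the fall without leukemia replicate 2 or any 1 wild-type array, and the change of the latter set was -1.33 on leukemia replicate 1 alone. Both of these sets carry endings of single-gene probe sets, while the brightest set of Srsf3 had a change of -0.05. For Srsf2 1415807_s_at rose by 0.46 and 1427504_s_at fell by 0.25. The rise was called without leukemia replicate 1 but not without any other 1 array, and the fall was not called without wild-type replicate 2 or 3.

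For Hnrnpa2b1 the brightest set fell by 0.29, but 1433829_a_at rose by 0.61 ± 0.10 SE, from 10.40, 10.19 and 10.16 to 10.92, 10.71 and 10.95, and 1434047_x_at rose by 0.52 (adjusted p = 0.00376 and 0.00388). The groups did not overlap for any of the 3 sets. The gene's direction therefore depends on the probe set, and the mean of all its sets gave a rise of 0.27. Hnrnpab, an hnRNP A/B protein, held the largest change among the member probe sets. Its set 1426114_at was at 10.07, 9.04 and 9.04 in leukemia and at 7.25, 6.96 and 7.24 in wild-type, a rise of 2.23 ± 0.29 SE (adjusted p = 0.00124), or 1.89 without leukemia replicate 1, whereas 1448144_at fell by 0.60 and the brightest set had a change of -0.10.

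In the core spliceosome, 1419087_s_at of Sf3a1 rose by 1.03 ± 0.26 SE, from 6.72, 6.78 and 7.07 to 8.45, 7.68 and 7.54 (adjusted p = 0.0189), against the fall of 0.60 of its brightest set. The rise was not called without wild-type replicate 1 or 2, and on leukemia replicate 1 alone it was 1.59. For Sf3b2 1429362_a_at was at 9.06, 9.14 and 8.95 in leukemia and at 8.71, 7.86 and 7.09 in wild-type, so that the wild-type arrays spread over a wide range below the leukemia arrays. That set rose by 1.16 ± 0.37 SE (adjusted p = 0.0440), and 1456352_a_at fell by 0.62. The rise was not called without any 1 leukemia array or without wild-type replicate 2 or 3, whereas the fall of 1456352_a_at was called whichever array was left out. Prpf4b, a kinase of splicing proteins, had 1 set that rose by 0.54 and 1 that fell by 0.55, neither called without any 1 wild-type array and the latter also not without leukemia replicate 1 or 2. A further 2 genes, Prpf6 and Snrpb, had a set called against the direction of their brightest set, which itself did not pass. The set 1454789_x_at of Prpf6 rose by 0.74 and 1437193_s_at of Snrpb by 0.21, the latter not called without leukemia replicate 2 or any 1 wild-type array. Which exons or transcript ends these sets read was not analysed here.

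**Figure D5:**
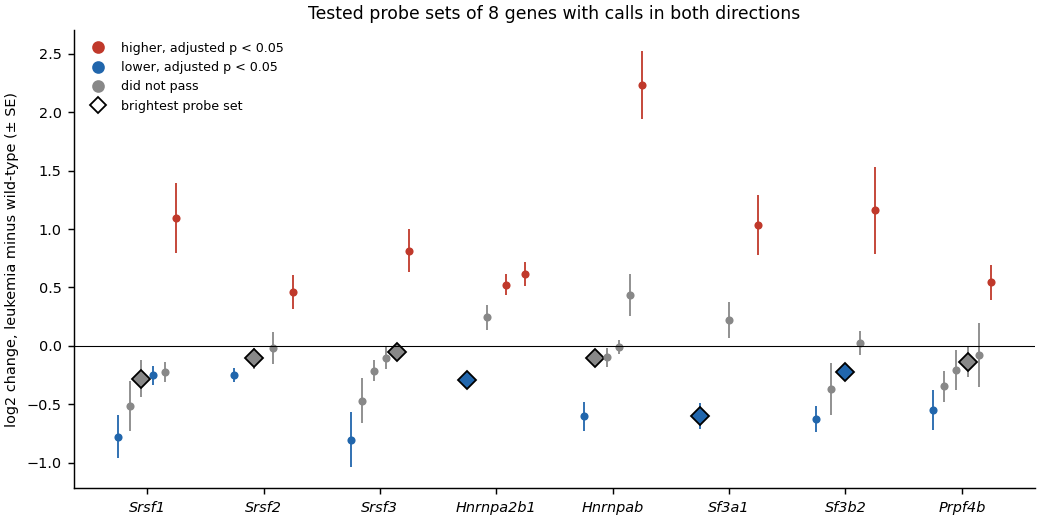
Log2 change (leukemia minus wild-type, vertical axis, ± SE) of every tested probe set of the 8 genes with calls in both directions, red for sets that were higher, blue for sets that were lower and grey for sets that did not pass, with the brightest set of each gene as a diamond. The rise of 2.23 in Hnrnpab is the largest, and the brightest sets lie between -0.60 and -0.05.

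Upstream sequence of 3 changed genes is shown for the single gene that rose, for Sf3a1 and for Prpf8, each with 1 start in the RefSeq promoter table (GRCm38.p6). For Sf3a1 and Prpf8 that start is the annotated start of the gene, while for Srsf5 it is not, so that distances for Srsf5 are from the start in the table. Each line gives the 250 bases before that start, 5′ to 3′ on the + strand, with capitals at matches to the motifs searched. The regions are chr12:80945249-80945498 for Srsf5, chr11:4160104-4160353 for Sf3a1 and chr11:75486527-75486776 for Prpf8.
Srsf5: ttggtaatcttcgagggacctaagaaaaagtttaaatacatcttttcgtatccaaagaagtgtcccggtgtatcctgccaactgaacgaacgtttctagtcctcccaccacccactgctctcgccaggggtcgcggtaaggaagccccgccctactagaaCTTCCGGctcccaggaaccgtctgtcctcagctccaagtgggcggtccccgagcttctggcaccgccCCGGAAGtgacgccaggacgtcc
Sf3a1: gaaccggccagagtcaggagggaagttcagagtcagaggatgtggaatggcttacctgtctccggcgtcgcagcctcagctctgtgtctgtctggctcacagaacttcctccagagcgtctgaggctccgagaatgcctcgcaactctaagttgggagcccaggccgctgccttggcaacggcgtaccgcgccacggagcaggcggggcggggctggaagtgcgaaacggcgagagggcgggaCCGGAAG
Prpf8: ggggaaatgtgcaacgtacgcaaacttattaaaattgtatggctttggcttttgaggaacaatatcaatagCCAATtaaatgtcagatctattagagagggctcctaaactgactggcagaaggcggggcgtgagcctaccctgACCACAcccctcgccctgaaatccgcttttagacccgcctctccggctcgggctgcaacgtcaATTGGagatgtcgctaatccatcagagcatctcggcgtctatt
The capitals of Srsf5 and Sf3a1 are the ETS core CCGGAAG or its complement, 90 and 23 bases before the start of Srsf5 and 7 before that of Sf3a1. Those of Prpf8 are CCAAT, at 179 and, on the other strand, 43 bases before the start, and the complement of the RUNX core TGTGGT at 106 bases. RUNX factors include AML1, the DNA-binding part of the fusion.

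A promoter was found for 53 of the 60 genes, and motifs were searched on both strands of the 250 bases before any listed start. The ETS core CCGGAAG was found for 17 of the 53 genes (32.1%), against 17.4% of 8005 tested genes with a promoter, and for 6 of the 15 changed genes with one. CCAAT was found for 27 genes (50.9%, against 40.9%), the RUNX core TGTGGT for 5 (9.43%, against 12.7%), the E-box CACGTG for 5 (9.43%, against 10.4%) and TATAAA for 4 (7.55%, against 7.37%). Of the changed genes only Hnrnph1 and Prpf8 held the RUNX core in this window. These are matches of letters, and binding was not measured.

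Splicing genes outside these families were read from 5 lists. Over 127 tested genes of the lists 38 changed, 9 higher and 29 lower, or 29.9% against the 42.1% of all genes tested, with a median change of -0.13. Without wild-type replicates 1, 2 and 3 the counts were 20, 22 and 17. By list, the share that changed over all arrays ran from 16.7% (SR protein kinases and phosphatases) to 57.1% (minor spliceosome, 7 genes). In the core spliceosome outside the named families 2 of 52 rose and 14 fell. Sart3, a recycling factor of the U4 and U6 particles, fell by 1.05 ± 0.12 SE, from 9.33, 9.43 and 9.32 to 8.14, 8.30 and 8.48 (limma adjusted p = 0.000718), though with the mean of its probe sets the change was -0.35 and did not pass. Xab2, a protein of the activated spliceosome, fell by 1.00. Lsm8 of the U6 ring rose by 0.38 and Rbm8a of the exon junction complex by 0.30, the latter not called without any 1 wild-type array and at -0.06 with the mean of its probe sets.

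The minor spliceosome removes a rare class of introns. Of its 7 tested genes 3 were higher and 1 lower, or 57.1% of a short list, against 42.1% of all genes tested. Among the 7, Zcrb1 rose by 0.29 (limma adjusted p = 0.0344), not called without leukemia replicate 3 or any 1 wild-type array. Snrnp25 was at 10.41, 10.66 and 10.38 in leukemia and at 9.82, 9.88 and 10.00 in wild-type, with no overlap, and rose by 0.59 ± 0.10 SE (adjusted p = 0.00456). Snrnp35 rose by 0.59. With wild-type replicate 1 or 3 left out its change was 0.58 and 0.53 and no longer passed (adjusted p = 0.0761 and 0.0917). Pdcd7, which belongs to the same U11 and U12 particle, fell by 0.68, and with wild-type replicate 2 or 3 left out its change was -0.70 and -0.59 and no longer passed (adjusted p = 0.0560 and 0.0755). Of 12 tested genes of SR protein kinases, phosphatases and import none rose and 2 fell, the kinases Clk2 (fell by 0.47) and Dyrk2 (fell by 0.55), neither called without leukemia replicate 2 or any 1 wild-type array, and Dyrk2 also not without leukemia replicate 3. Averaged over its probe sets, Dyrk2 had a change of -0.20 (adjusted p = 0.564), and its brightest set one of -0.24 on leukemia replicate 1 alone. Of 12 snRNP assembly genes Gemin8 rose by 0.74 and 3 fell, among them Gemin5 (fell by 0.85) and the methyltransferase Prmt5 (fell by 0.51), both not called without any 1 wild-type array. With the mean of their probe sets Gemin8 was at 0.46 (adjusted p = 0.0603) and Gemin5 at -0.31 (adjusted p = 0.306), and neither passed. On leukemia replicate 1 alone the changes of Gemin5 and Prmt5 were -1.41 and -0.87.

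Among 44 tested splicing regulators outside the named families 3 rose and 9 fell. Khdrbs3, an RNA-binding protein of the STAR family, was at 2.75, 3.04 and 2.89 log2 on the leukemia arrays, below the filter on dim signal, and at 6.08, 5.88 and 6.01 on the wild-type arrays. It entered the test through the wild-type arrays alone, so it is given by its values, with no size of change, though it is counted among the 9. Ptbp1, the polypyrimidine tract binding protein, was at 11.13, 11.21 and 11.33 against 12.11, 12.17 and 12.09, and fell by 0.90 ± 0.07 SE (limma adjusted p = 9.22e-05). With the mean of its probe sets the change was -0.24 and did not pass. With probe sets free of shared endings, which leaves out _a_at as well as _s_at and _x_at sets, it had a change of 0.23. This did not pass (adjusted p = 0.332). Esrp2, a splicing regulator known from epithelia, rose by 1.10 (0.68 with the mean of its probe sets), and Mbnl3, of the muscleblind family, by 0.74. Rbfox2, Taf15, Pcbp4 and the kinase Srpk3, 4 genes of the lists, were left out as dim.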

How the data were processed

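Affymetrix Mouse430_2 arrays of 3 leukemia and 3 wild-type samples were read from the authors' deposited table of 28821 probe sets. The deposited intensity values run from 3.31 to 18869 on a linear scale. RMA is named in the submitters' processing notes, with no version (not given in the sources used here). The log2 of the values was taken with no pseudocount. Gene names came from the platform annotation, in which 23750 probe sets have 1 symbol, 677 several, 4355 none and 39 are controls; 23674 matched the RefSeq table of GRCm38.p6. Of 13146 genes named, each by its brightest probe set, 9715 were tested, those at or above the 40th percentile of an array on at least 3 arrays. Left out were 12 probe sets with several symbols, of which 1 at least began with a searched name.

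Groups were compared with limma 3.58.1 (lmFit and eBayes with an intensity trend, two-sided) in R 4.3.3, with 4 residual degrees of freedom and Benjamini-Hochberg adjustment over all genes tested at 0.05. Probe sets were fitted in the same way over all that passed the filter. p-values measure the spread between these samples. On simulated data with 200 of 9715 genes changed, 11.9% of changes of 0.5 log2, 68.7% of 1 and 95.5% of 2 were recovered, with 5 false calls. In the data 42.1% of genes passed, and the median SE was 0.10 for the splicing factor genes against 0.16 over all genes tested. The simulated rates therefore do not describe the test of the splicing factor genes.

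Genes named are, per family, the 3 largest rises and falls with no overlap, a panel of 11 genes (Snrpn was not analysed here), every gene with a further probe set called the opposite way and, of the other lists, the 2 largest rises and falls. Others (Hnrnpu, Hnrnpl, Hnrnpr, Sf3b5, Sf3a2, Prpf19, Srsf6, Prpf3, Prpf31, Prpf4, Zcrb1 and the Snrp genes apart from Snrpf and Snrpb) were chosen after their values were seen. The genes and lists were chosen with earlier results of these data known. The alternatives were array weights, centring, quantile normalization, other filters, 16 added before log2, other probe set choices, no trend, blocks by fluidics run or replicate number, and each array left out. Figures were drawn with matplotlib 3.10.9.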

Additional observations from a re-analysis of the deposited data

How the results depend on the processing

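The count of 16 changed splicing factor genes was 8 with arrays centred, 27 with the fluidics run as a block, 8 with a replicate block, 6 without the intensity trend and 5 to 18 with 1 array left out. It was 11 to 18 under the other alternatives, within 1.5 times of 16. Shares of all genes tested are not given here for the replicate block or without the intensity trend. Under those settings a general loss of calls therefore cannot be told from one in these genes. For the other splicing genes the count of 38 was 67 with the run block and 17 to 55 with 1 array left out. The median change of -0.16 was -0.076 with arrays centred, -0.047 with the mean of all probe sets and -0.20 to -0.13 with 1 array left out. The 8 genes with probe sets called in both directions were 5 with a replicate block, 5 without the intensity trend, 5 without _x_at and _s_at sets (added after the data were seen) and 2 to 6 with 1 array left out. For these counts the shares over all genes with several probe sets are given for the main fit only. The replicate numbers did not pair the samples: deviations from the group means correlated at -0.07, 0.05 and 0.03 between same-numbered arrays. Among named genes that passed in the main fit, Hnrnpa2b1 reversed direction with the mean of all probe sets (0.27, limma adjusted p = 0.0327). It also did so with probe sets without shared endings (0.24). Sf3a1 (0.22), Sf3b2 (0.077) and Rbm8a (-0.062) reversed with the mean of all probe sets, and Ptbp1 (0.23) with probe sets without shared endings. The mean takes in sets too dim to be tested, and of the 7 sets of Sf3b2 only 5 were tested. Of the remaining values of named splicing factor genes, 339 kept their side of the threshold, 52 lost the call and 10 gained it. The 339 include changes of sign in genes that did not pass. Sf3b1, for example, went from -0.03 to 0.12 on leukemia replicate 1 alone, and Prpf6 from -0.13 to 0.02 without that array. For the other named genes 231 kept direction and side of the threshold and 35 lost the call. The causes were not tested. Signal over background limits dim genes such as Prpf40b and Khdrbs3.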

Other observations

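Among the splicing genes outside the named families, 9 had a further probe set called against the direction of their brightest one. The brightest sets of these genes did not pass. The number of listed genes with several tested probe sets and the share over all genes for this measure are not given here. Whether these calls hold with an array left out is not given either. The set 1451977_at of Dyrk1a, a kinase of SR proteins, had a change of -1.23 on the log2 scale (limma adjusted p = 0.00136), against 0.17 for the brightest set. The set 1438069_a_at of Rbm5, a splicing regulator, had one of 1.35 (adjusted p = 0.0379), against -0.24. Those of Ppp1cb, Scaf8, Strap, Wbp11 and Wbp4 had changes of 0.52, 0.55, 0.52, 0.58 and 0.61, and those of Pnn and Usp39 of -0.43 and -0.31. For these the adjusted p (limma) ran from 0.0200 (Strap) to 0.0433 (Wbp11).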
